A study of Mus musculus with 6 samples.

Results

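Hox genes were measured in primary lung fibroblasts, the collagen-making cells of the lung's connective tissue, grown from wild-type C57BL/6 mice. The members were the protein-coding genes of the count table whose symbol is Hoxa, Hoxb, Hoxc or Hoxd followed by a number, 39 of 55487 genes. They lie in 4 clusters, with 11 genes in cluster A on chromosome 6, 10 in cluster B on chromosome 11, 9 in cluster C on chromosome 15 and 9 in cluster D on chromosome 2. After 24 h in 0.1% fetal bovine serum, the cells received rmCIRBP at 1 µg/mL, the recombinant mouse form of cold-inducible RNA-binding protein, which is a damage signal when outside the cell, or phosphate-buffered saline (PBS), for 24 h, with 3 libraries in each group. All 6 libraries were polyA-selected and sequenced in a single batch, and all cells were wild type and serum-starved. No label tells whether the replicates were separate mice or cultures, and the p-values therefore cover only the spread among these libraries, which may be technical.

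Hox genes encode homeodomain transcription factors that give cells a position along the body axis. Within a cluster the genes lie in the order in which they act: low-numbered (anterior) genes at the 3′ end are used nearest the head, and high-numbered (posterior) genes at the 5′ end in the trunk, limbs and genital region. Genes with the same number in different clusters are paralogues, descended from a common ancestor gene. Cultured fibroblasts are known to keep the Hox genes of the body site they came from, and Polycomb and MLL complexes hold the clusters off or on. In the mouse lung, genes of the anterior and central parts of clusters A and B are active in the mesenchyme, and Hoxa5 is needed for normal development of the airways.

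Library totals ran from 13677385 to 14001478 assigned counts in the rmCIRBP group and from 12105584 to 14262375 in the PBS group. Levels are given as counts scaled to library size (CPM). For a gene with no count in a library, counting error alone leaves room for 3 counts there, or 0.205 to 0.249 CPM. Fibroblast genes were abundant in every library: the summed level of 8 markers, Col1a1 and Col1a2 the highest, was 19850 to 26570 CPM with rmCIRBP and 23530 to 28570 CPM with PBS. Epithelial markers were at or near 0, with Krt8 and Nkx2-1 at 0. The sum of 8 such genes was 0.0732 to 0.294 CPM with rmCIRBP and 0.162 to 0.478 CPM with PBS. Neutrophil markers were also near 0, with S100a9 and Ly6g at 0 and a sum of 4 genes of 0.805 to 1.03 CPM with rmCIRBP and 0 to 0.249 CPM with PBS. Chondrocyte markers, led by Sox9 and Comp, summed to 3.61 to 9.98 CPM with rmCIRBP and 6.23 to 11.1 CPM with PBS.

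Promoters of the called genes are shown because they are the regulatory sequence next to the genes whose RNA level differed. Windows from 250 bases before to 50 after a gene's start were given by RefSeq on GRCm38.p6 for 22 of the 39 Hox genes, and among the 5 called genes for Hoxb8 and Hoxa5. Hoxb3, Hoxb5 and Hoxb6 are named without one. Capitals mark matches on either strand to TATAAA, the core of the TATA box, or to TGATNNAT, a joint recognition sequence of Hox proteins and their Pbx partners.
Hoxb8, chr11:96281655-96281954, plus strand: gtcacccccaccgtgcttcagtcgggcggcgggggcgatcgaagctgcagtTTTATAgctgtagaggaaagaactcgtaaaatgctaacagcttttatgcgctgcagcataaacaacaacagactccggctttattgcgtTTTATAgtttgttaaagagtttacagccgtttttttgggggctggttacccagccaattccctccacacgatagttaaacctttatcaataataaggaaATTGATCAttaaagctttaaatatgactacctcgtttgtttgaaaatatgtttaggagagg
Hoxa5, chr6:52204538-52204837, minus strand: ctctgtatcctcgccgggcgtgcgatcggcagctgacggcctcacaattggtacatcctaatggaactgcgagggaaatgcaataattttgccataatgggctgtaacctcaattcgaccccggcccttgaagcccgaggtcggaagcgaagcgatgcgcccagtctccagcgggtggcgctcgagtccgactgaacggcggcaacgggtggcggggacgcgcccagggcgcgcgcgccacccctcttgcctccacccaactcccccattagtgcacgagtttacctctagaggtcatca
The Hoxb8 window holds 13 CpG dinucleotides and the Hoxa5 window holds 29, against a median of 7 over all 32841 windows in the reference. TATAAA is present in 13.6% of all windows and TGATNNAT in 8.85%, and each is in 4 of the 24 windows of Hox genes. A match to the consensus of NF-kB, an inflammatory transcription factor, is in 8.46% of all windows and in 1 Hox window, which belongs to neither gene printed here. A match describes the letters only.

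The clusters were used very unequally. Of 33419 counts assigned to Hox genes over the 6 libraries, cluster B held 24011, cluster A held 9217, cluster C held 167 and cluster D held 24. Adjusted for exon length on the TPM scale, cluster B made up 66.1% of summed Hox RNA with rmCIRBP and 67.4% with PBS, and cluster A 33.4% with rmCIRBP and 31.9% with PBS. By count, 16 genes passed the filter on low values, among them Hoxa2 to Hoxa7, Hoxb2 to Hoxb9 and Hoxc4, and the same 16 averaged at least 1 TPM. The remaining 23 did not enter the test: 10 had no count in any library and 13 had between 1 and 21 counts in all.

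Within clusters A and B the used genes were the anterior and central ones, apart from the near-silent Hoxb1 and the used posterior gene Hoxb9, whereas in clusters C and D genes at every position were near-silent apart from Hoxc4. Genes of groups 1 to 3 (anterior) had 12878 counts, groups 4 to 8 (central) had 19279, and groups 9 to 13 (posterior) had 1262, nearly all from Hoxb9. Cluster A was measured up to Hoxa7 and stopped there: Hoxa9 had 6, 1 and 0 counts with rmCIRBP and 0, 4 and 1 with PBS, Hoxa10, a gene of uterus and limb, had 0, 1 and 0 with rmCIRBP and 2, 3 and 6 with PBS, and Hoxa11 and Hoxa13 had none. Cluster B ran from Hoxb2 to Hoxb9, with 1 count of its hindbrain gene Hoxb1 and 3 counts, all in rmCIRBP replicate 1, of its prostate gene Hoxb13. In cluster C, Hoxc9, Hoxc10 and Hoxc11 had no count, and the others apart from Hoxc4 (Hoxc5, Hoxc6, Hoxc8, Hoxc12 and the hair gene Hoxc13) had 21 or fewer in all. In cluster D, Hoxd1, Hoxd3, Hoxd4, Hoxd10 and Hoxd12 had no count, and Hoxd8, Hoxd9, Hoxd11 and the digit gene Hoxd13 shared 24.

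**Figure D1:**
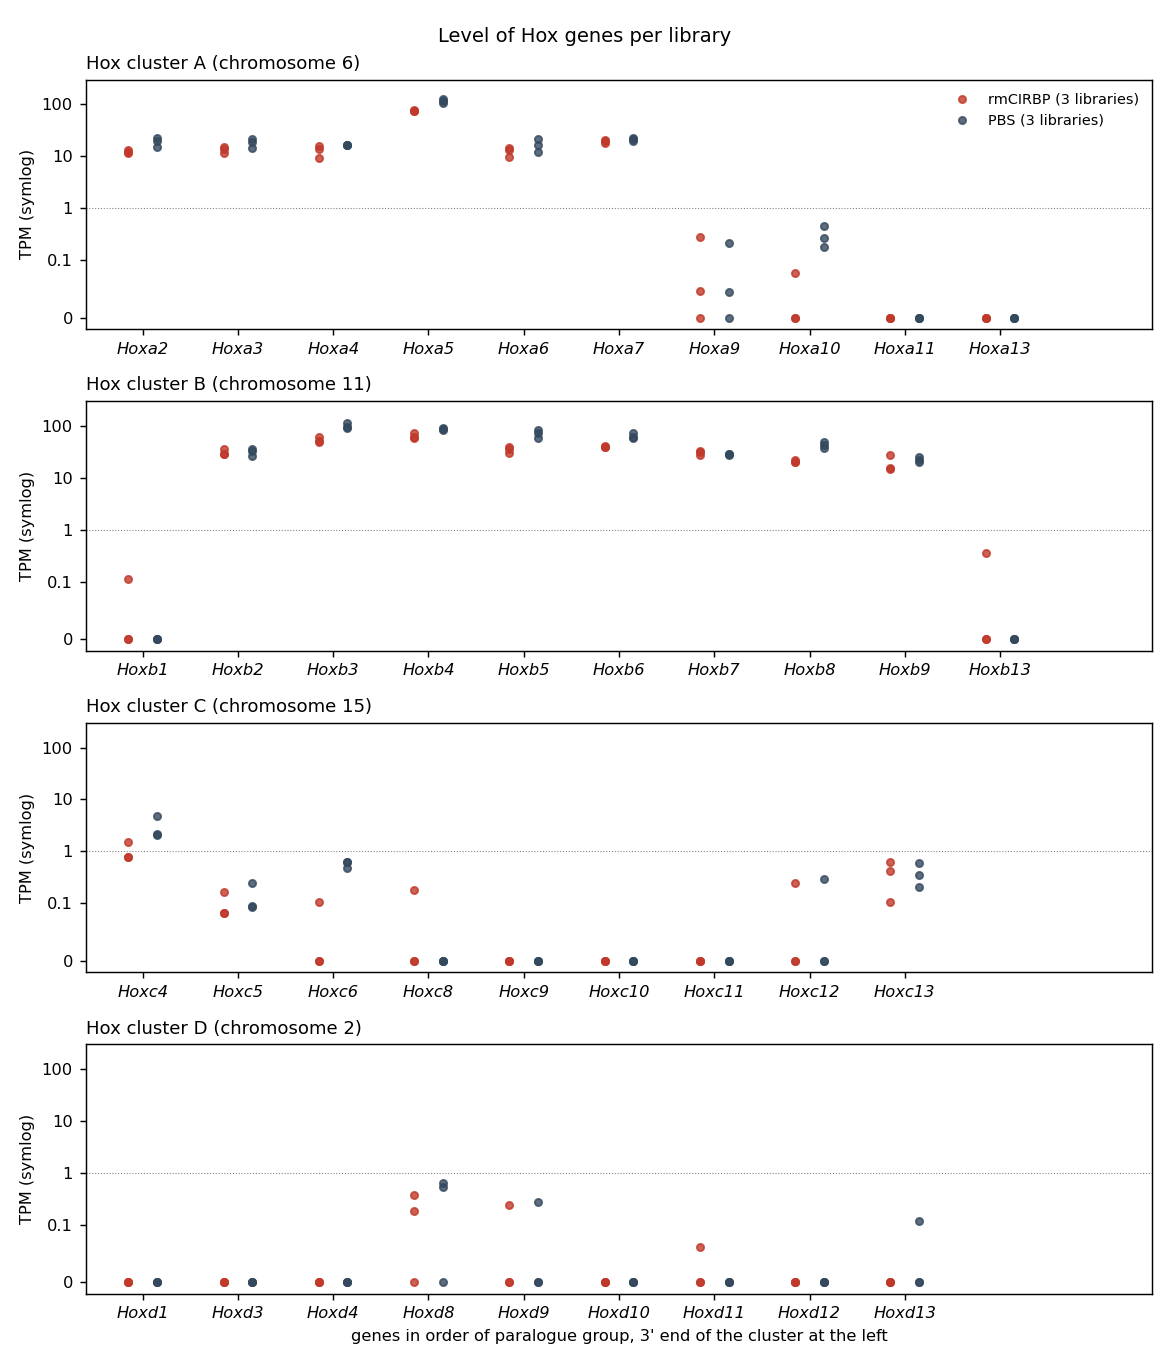
Level of Hox genes in TPM (symmetric log axis) by cluster, genes in order of paralogue group, points for the 3 rmCIRBP libraries left of those for the 3 PBS libraries and a dotted line at 1 TPM. Levels are high for Hoxb3, Hoxb4 and Hoxa5, and lie near 0 for the posterior genes of cluster A and for all of clusters C and D apart from Hoxc4.

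Per length of all exons joined, Hoxa5 was the highest Hox gene in both groups, at 74.8 ± 2.64 TPM with rmCIRBP and 115 ± 10.4 TPM with PBS (SD, n = 3 each). Hoxb4, a regulator of blood stem cells, averaged 65.6 TPM with rmCIRBP and 87.1 TPM with PBS, and Hoxb3 averaged 53.9 TPM with rmCIRBP and 100.2 TPM with PBS. This order rests on the length used: Hoxa5 held 17.0% of summed Hox TPM with all exons joined and Hoxb3 13.5%, whereas with the length of the longest transcript Hoxb3 held 16.1% and Hoxa5 15.2%. With the same whole-gene counts divided by the length of exon bases shared with no other gene, Hoxb3 held 23.7% and Hoxa5 14.1%. That setting was chosen after seeing the data. Reads over shared bases, if counted, remain in these values and would raise Hoxb3. Of the bases in Hoxb3 exons, 52.9% lie in exons of another gene too, including the antisense RNA Hoxb3os. Whether reads were assigned by strand is not given in the sources used here, so these RNAs cannot be told apart over those bases.

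Hox RNA was lower with rmCIRBP. Hox genes took 0.0334%, 0.0328% and 0.0341% of assigned counts in rmCIRBP libraries, against 0.0473%, 0.0492% and 0.0547% in PBS libraries. The summed level was 335, 329 and 350 CPM with rmCIRBP and 478, 484 and 532 CPM with PBS, a log2 ratio of -0.56, and every rmCIRBP library lay below every PBS library. In bulk RNA, fewer cells of a type and less RNA per cell cannot be told apart.

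Of the 16 tested Hox genes, 5 fell and 0 rose by edgeR's quasi-likelihood test at an adjusted p of 0.05. The 5 (31.3% of those tested) were Hoxb3, Hoxb5, Hoxb6 and Hoxb8 of cluster B and Hoxa5 of cluster A. Over all 15801 genes tested, 4.77% were called lower and 6.74% higher. At an unadjusted p under 0.05, 9 Hox genes were lower and 0 higher. No share over all genes was taken at that threshold, here or for the lists below. Both DESeq2 and limma voom called 5 Hox genes lower and 0 higher. Among all tested genes, DESeq2 called 7.42% lower and limma voom 4.57%. The log2 fold change was below 0 for 15 of the 16, against 50.8% of all genes, and its median was -0.39, against -0.01 over all genes. Leaving out 1 library gave 13 to 15 below 0, and limma voom gave 14. In 9 of the 16 every rmCIRBP library lay below every PBS library, against 17.1% of all genes. Hox genes of a cluster share regulatory DNA and are not independent of each other.

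The largest fold changes among called genes were in cluster B. Hoxb8, which acts in blood progenitors and the spinal cord, had 17.0, 14.9 and 15.5 CPM with rmCIRBP and 28.4, 31.4 and 34.7 CPM with PBS. Its level averaged 15.8 ± 1.04 CPM with rmCIRBP and 31.5 ± 3.13 CPM with PBS (SD, n = 3 each), which is -0.995 ± 0.13 as a log2 fold change (± SE; edgeR adjusted p = 0.00299). No library of one group reached the range of the other. Hoxb5, which takes part in lung branching in the mouse, had 31.6, 28.4 and 24.7 CPM with rmCIRBP and 47.0, 55.4 and 64.1 CPM with PBS, a log2 fold change of -0.98 ± 0.15 (edgeR adjusted p = 0.00654). Its groups did not overlap either, and its means were 28.2 ± 3.49 CPM with rmCIRBP and 55.5 ± 8.57 CPM with PBS.

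Hoxb3, an anterior gene that acts in the hindbrain and pharyngeal arches, had 62.1, 59.5 and 75.1 CPM with rmCIRBP and 118, 107 and 131 CPM with PBS. The log2 fold change was -0.85 ± 0.13 (edgeR adjusted p = 0.00580), and it was the most abundant Hox gene by count. Hoxb6, a central gene active in trunk and limb-bud mesoderm, had 22.3, 21.9 and 23.4 CPM with rmCIRBP and 33.3, 32.7 and 38.6 CPM with PBS, a log2 fold change of -0.63 ± 0.12 (edgeR adjusted p = 0.0131). Both genes were lower in all rmCIRBP libraries than in any PBS library. On GRCm38 and chromosome 11, Hoxb8 lies at chr11:96281905-96285315, Hoxb6 at chr11:96292476-96301569, Hoxb5 at chr11:96303336-96306121 and Hoxb3 at chr11:96323326-96347930.

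Hoxa5, at chr6:52201754-52204587 on the minus strand, had 41.8, 39.0 and 39.7 CPM with rmCIRBP and 62.9, 54.0 and 64.1 CPM with PBS. The log2 fold change was -0.59 ± 0.11 (edgeR adjusted p = 0.0127), with no overlap between groups. The calls of Hoxb3, Hoxb5 and Hoxb8 held in all 17 refits under other settings. Those of Hoxa5 and Hoxb6 ended when rmCIRBP replicate 1 was left out (edgeR adjusted p = 0.0546 for Hoxa5 and 0.0644 for Hoxb6) or PBS replicate 3 (0.0557 for Hoxa5 and 0.0540 for Hoxb6).

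**Figure D2:**
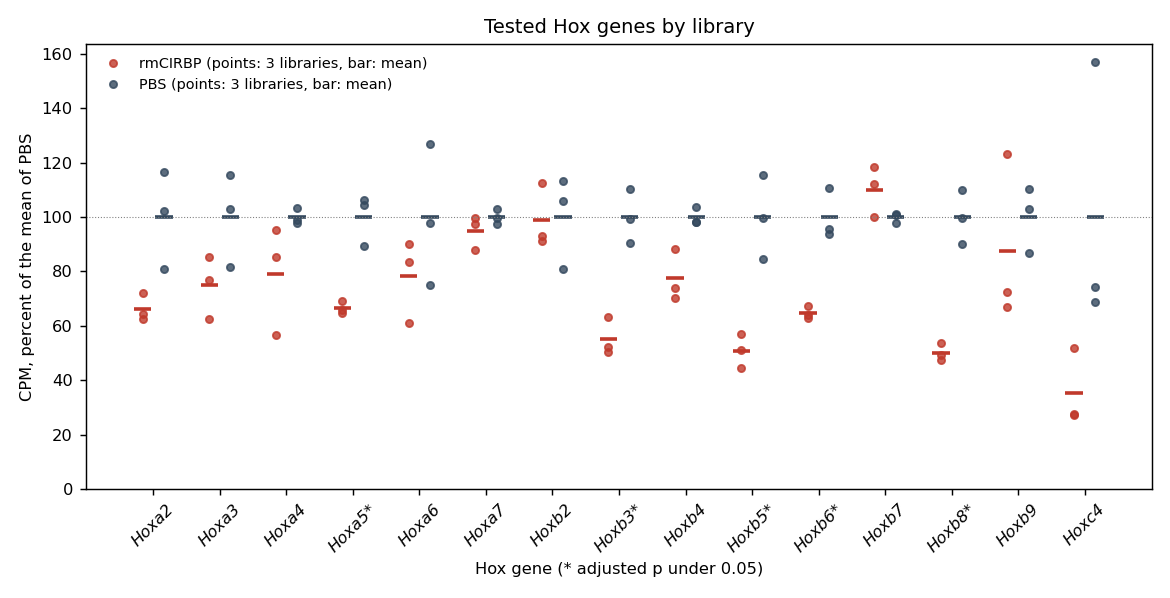
CPM of tested Hox genes as a percent of its PBS mean, with points for libraries and bars for means, rmCIRBP left of PBS; an asterisk marks an edgeR adjusted p under 0.05. The rmCIRBP points of Hoxb3, Hoxb5, Hoxb6, Hoxb8 and Hoxa5 all lie below the PBS points, whereas those of Hoxb2, Hoxb7 and Hoxa7 overlap.

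Within cluster B the called genes were interleaved with genes that did not pass the test. Hoxb7, which lies between Hoxb8 and Hoxb6, had 13.7, 12.2 and 14.4 CPM with rmCIRBP and 12.3, 12.3 and 11.9 CPM with PBS, a log2 fold change of 0.14 ± 0.14 (edgeR adjusted p = 0.562). Hoxb2, a hindbrain gene next to Hoxb3, had 28.5, 35.2 and 29.1 CPM with rmCIRBP and 33.0, 35.3 and 25.3 CPM with PBS, a log2 fold change of -0.01 ± 0.16 (edgeR adjusted p = 0.964). For both, the groups overlapped. Without 1 library, Hoxb2 ranged from -0.15 to 0.09, so its sign depends on the library left out, and Hoxb7 was at 0.09 without rmCIRBP replicate 3. Hoxb4 had 45.9, 43.7 and 54.9 CPM with rmCIRBP and 61.2, 61.0 and 64.5 CPM with PBS, which do not overlap, with a log2 fold change of -0.37 ± 0.11 (edgeR adjusted p = 0.0759). Hoxb4 passed the test after upper-quartile scaling and when rmCIRBP replicate 3 was left out (lowest edgeR adjusted p = 0.0428). Hoxb9, the only posterior gene tested, had 10.8, 19.8 and 11.7 CPM with rmCIRBP and 16.6, 17.8 and 14.0 CPM with PBS. Its log2 fold change was -0.19 ± 0.25 (edgeR adjusted p = 0.654), and -0.52 without rmCIRBP replicate 2, its highest library (edgeR adjusted p = 0.117). It was -0.03 without rmCIRBP replicate 1, -0.07 without rmCIRBP replicate 3 and -0.10 without PBS replicate 2.

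In cluster A, Hoxa5 was the only called gene of 7 tested. Hoxa2, which patterns the jaw arches, had 5.95, 6.14 and 6.88 CPM with rmCIRBP and 7.72, 11.1 and 9.76 CPM with PBS, with no overlap and a log2 fold change of -0.59 ± 0.20 (edgeR adjusted p = 0.0960). Hoxa3, needed for thymus and parathyroid, had 26.4, 19.3 and 23.7 CPM with rmCIRBP and 25.2, 31.8 and 35.6 CPM with PBS, a log2 fold change of -0.42 ± 0.17 (edgeR adjusted p = 0.153). Its groups overlapped. Hoxa4 had a log2 fold change of -0.34 ± 0.23 (edgeR adjusted p = 0.376) and Hoxa6 one of -0.36 ± 0.29 (edgeR adjusted p = 0.453). Hoxa4 was at -0.15 without rmCIRBP replicate 2, and Hoxa6 at -0.20 without rmCIRBP replicate 1 and -0.15 without PBS replicate 3. Hoxa7, a gene of vertebral patterning, had 14.8, 16.8 and 16.4 CPM with rmCIRBP and 16.4, 16.7 and 17.3 CPM with PBS, a log2 fold change of -0.07 ± 0.13 (edgeR adjusted p = 0.743), and -0.02 without rmCIRBP replicate 1.

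Hoxc4, at chr15:103018934-103036852, was the only tested gene of cluster C, with 15, 8 and 8 counts with rmCIRBP and 19, 18 and 49 counts with PBS. The groups did not overlap, and the log2 fold change was -1.50 ± 0.48 (edgeR adjusted p = 0.0825). Without PBS replicate 3, its highest library, it was -1.001 (edgeR adjusted p = 0.284).

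**Figure D3:**
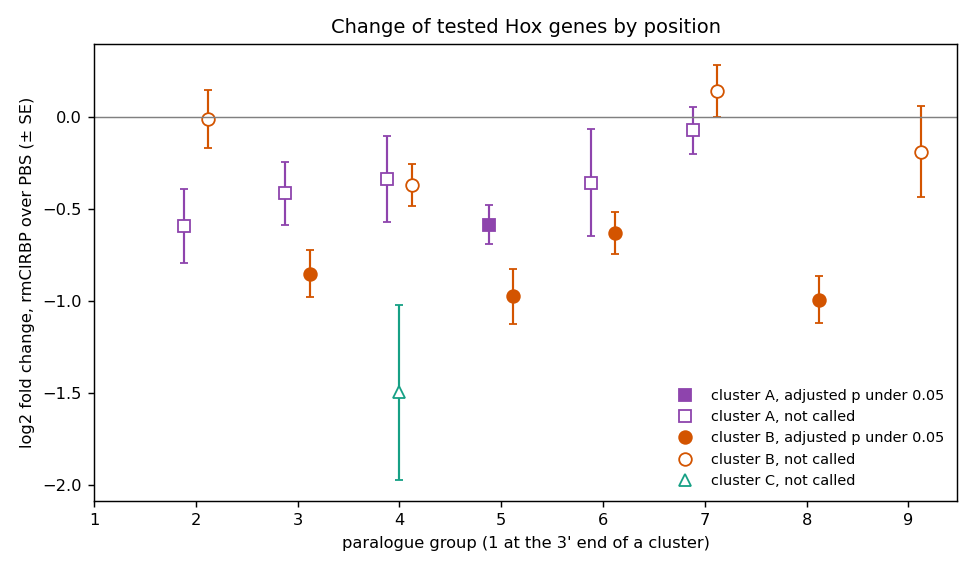
Log2 fold change of rmCIRBP over PBS for tested Hox genes by paralogue group, with SE bars, marker shape and colour for the cluster, and filled markers for an adjusted p under 0.05. Values range from -1.50 for Hoxc4 to 0.14 for Hoxb7, and the called genes are in paralogue groups 3, 5, 6 and 8.

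Summed over genes, cluster B had 232, 236 and 249 CPM with rmCIRBP and 350, 353 and 384 CPM with PBS, a log2 ratio of -0.60. Cluster A had 101, 92.0 and 100 CPM with rmCIRBP and 126, 128 and 144 CPM with PBS, a log2 ratio of -0.44. Both clusters were lower in every rmCIRBP library than in any PBS library, and whether the clusters differ from each other in this was not tested. Cluster C had 1.69, 1.01 and 0.951 CPM with rmCIRBP and 2.24, 2.44 and 4.09 CPM with PBS, and cluster D 0.367, 0.289 and 0 CPM with rmCIRBP and 0.664, 0 and 0.478 CPM with PBS. By paralogue group, the rmCIRBP sum was 59.4% of the PBS sum for group 3, 59.1% for group 5, 65.4% for group 6 and 50.3% for group 8. It was 76.3% for group 4, 91.3% for group 2, 87.9% for group 9 and 101.3% for group 7. In some groups a single gene held most counts: Hoxb8 1887 of 1907 in group 8 and Hoxb9 1206 of 1222 in group 9. Hoxb3 held 7350 of 9518 in group 3.

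The ratio of neighbouring or near genes within a library does not depend on the library's scaling. The 3 ratios given here were chosen after their values were seen and set a called gene over one that was not called, so they show the calls library by library and carry no test. Hoxb8 over Hoxb7 was 1.24, 1.23 and 1.08 in rmCIRBP libraries and 2.31, 2.55 and 2.90 in PBS libraries. Hoxb3 over Hoxb2 was 2.18, 1.69 and 2.58 in rmCIRBP libraries and 3.56, 3.03 and 5.16 in PBS libraries, and Hoxa5 over Hoxa7 was 2.83, 2.33 and 2.42 in rmCIRBP libraries and 3.85, 3.23 and 3.70 in PBS libraries. Every rmCIRBP ratio lay below every PBS ratio of the same pair.

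Markers of other cell types were measured beside these results, and their part in them was not tested. For comparison with the calls given here, edgeR called 4.77% of all tested genes lower and 6.74% higher. Endothelial markers summed to 5.92 to 8.22 CPM with rmCIRBP and 19.4 to 26.7 CPM with PBS. Of 6, 3 were tested and 2 fell, Kdr (1.39, 0.794 and 1.54 CPM with rmCIRBP, 11.1, 14.1 and 16.5 CPM with PBS) and Tek, while Emcn was at 0. Mesothelial markers summed to 2.64 to 5.73 CPM with rmCIRBP and 8.37 to 13.7 CPM with PBS, and of 4, of which Msln and Upk3b were the most abundant, Upk3b fell. Macrophage markers, led by Lyz2 and Csf1r, summed to 67.7 to 128 CPM with rmCIRBP and 115 to 149.6 CPM with PBS, and of 7, 6 were tested, Adgre1 rose and Mrc1 fell. Smooth muscle markers, led by Acta2 and Tagln, summed to 4535, 9842 and 1924 CPM with rmCIRBP and 5182, 2494 and 2623 CPM with PBS. Among fibroblast markers Dcn rose and Thy1 fell.

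Of 44 non-coding genes within the clusters, 28 had no count and 11 were tested, 6 of 19 in cluster A, 5 of 9 in cluster B and none of the 7 in cluster C or the 9 in cluster D. Of the tested genes 2, both in cluster B, fell and 0 rose (4.77% of all tested genes were called lower), with a median log2 fold change of -0.58. At an unadjusted p under 0.05, 6 were lower and 0 higher. DESeq2 called 3 lower and 0 higher, beside 7.42% of all tested genes called lower. Hoxb3os, transcribed against Hoxb3, had 67.4, 70.0 and 73.7 CPM with rmCIRBP and 110, 98.3 and 112 CPM with PBS, a log2 fold change of -0.60 ± 0.10 (edgeR adjusted p = 0.00844, and 0.0547 without rmCIRBP replicate 1). Of its exon bases, 76.2% are shared with another gene. Hoxb5os had 12.7, 12.8 and 11.2 CPM with rmCIRBP and 22.0, 17.5 and 22.0 CPM with PBS, a log2 fold change of -0.75 ± 0.15 (edgeR adjusted p = 0.0196). Its call ended without rmCIRBP replicate 1 (0.0707), rmCIRBP replicate 3 (0.0590) or PBS replicate 3 (edgeR adjusted p = 0.0810). Hotairm1, an RNA of the anterior end of cluster A, had a log2 fold change of -0.18 (edgeR adjusted p = 0.650), and Hotair of cluster C, Hoxa11os of cluster A and Haglr of cluster D had no count.

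The clusters also hold microRNA genes, small RNAs that repress messenger RNAs through bases 2 to 8, the seed. In the mouse, miR-196 is known to direct cleavage of Hoxb8 RNA, which is why the sequences are shown. They are from RefSeq on GRCm38.p6, with the seed in capitals.
mmu-miR-196a-5p, chr11:96265187-96265208 and chr15:102973365-102973386, plus strand: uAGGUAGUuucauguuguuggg
mmu-miR-196b-5p, chr6:52230129-52230150, minus strand: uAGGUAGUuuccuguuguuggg
mmu-miR-10a-5p, chr11:96317186-96317208, plus strand: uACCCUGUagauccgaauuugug
mmu-miR-10b-5p, chr2:74726074-74726096, plus strand: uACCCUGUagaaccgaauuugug
The miR-196 sequences share a seed and differ by A12C between 196a and 196b, and the miR-10 sequences share another seed and differ by U12A between 10a and 10b, positions counted from 1 at the 5′ end. PolyA-selected libraries do not measure mature microRNAs. Few reads were assigned to the microRNA genes themselves. Mir196a-1 in cluster B had 1.03, 0.866 and 0 CPM with rmCIRBP and 0.664, 1.30 and 0.887 CPM with PBS (edgeR adjusted p = 0.679). Mir10a had 9 counts in all, and Mir10b, Mir196a-2, Mir196b and Mir615 had none.

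Genes flanking the clusters were compared with those inside, taking the 3 nearest protein-coding genes on each side of each cluster, whatever their distance. Of 24, 19 were tested, 3 rose and 0 fell (6.74% of all tested genes were called higher and 4.77% lower), with a median log2 fold change of 0.16. At an unadjusted p under 0.05, 5 were higher and 1 lower. DESeq2 called 3 higher and 1 lower, beside 1446 higher and 1172 lower of all 15801 genes tested. Snx10, a sorting nexin 564.9 kb from cluster A, had 62.8, 55.7 and 64.2 CPM with rmCIRBP and 31.1, 28.9 and 36.8 CPM with PBS, a log2 fold change of 0.91 ± 0.13 (edgeR adjusted p = 0.00395). Hnrnpa3, an RNA-binding protein gene among those flanking cluster D, had a log2 fold change of 0.72 (edgeR adjusted p = 0.0208). Nfe2l2, which encodes the antioxidant regulator Nrf2, had one of 0.35 (edgeR adjusted p = 0.0424). The Hnrnpa3 call ended without rmCIRBP replicate 1 (0.0538), rmCIRBP replicate 3 (0.0544), PBS replicate 2 (0.0594) or PBS replicate 3 (0.0584), and the Nfe2l2 call ended when any of the 6 libraries was left out (0.148, 0.0634 and 0.0795 without rmCIRBP replicates 1, 2 and 3, and 0.0563, 0.117 and 0.140 without PBS replicates 1, 2 and 3). The most abundant neighbours, Hnrnpa1 among those flanking cluster C (225 CPM with rmCIRBP and 191 CPM with PBS, edgeR adjusted p = 0.419) and Tax1bp1 (191.0 CPM with rmCIRBP and 191.4 CPM with PBS, edgeR adjusted p = 0.988), did not pass the test. Evx1 and Evx2, homeobox genes next to clusters A and D, had no count.

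**Figure D4:**
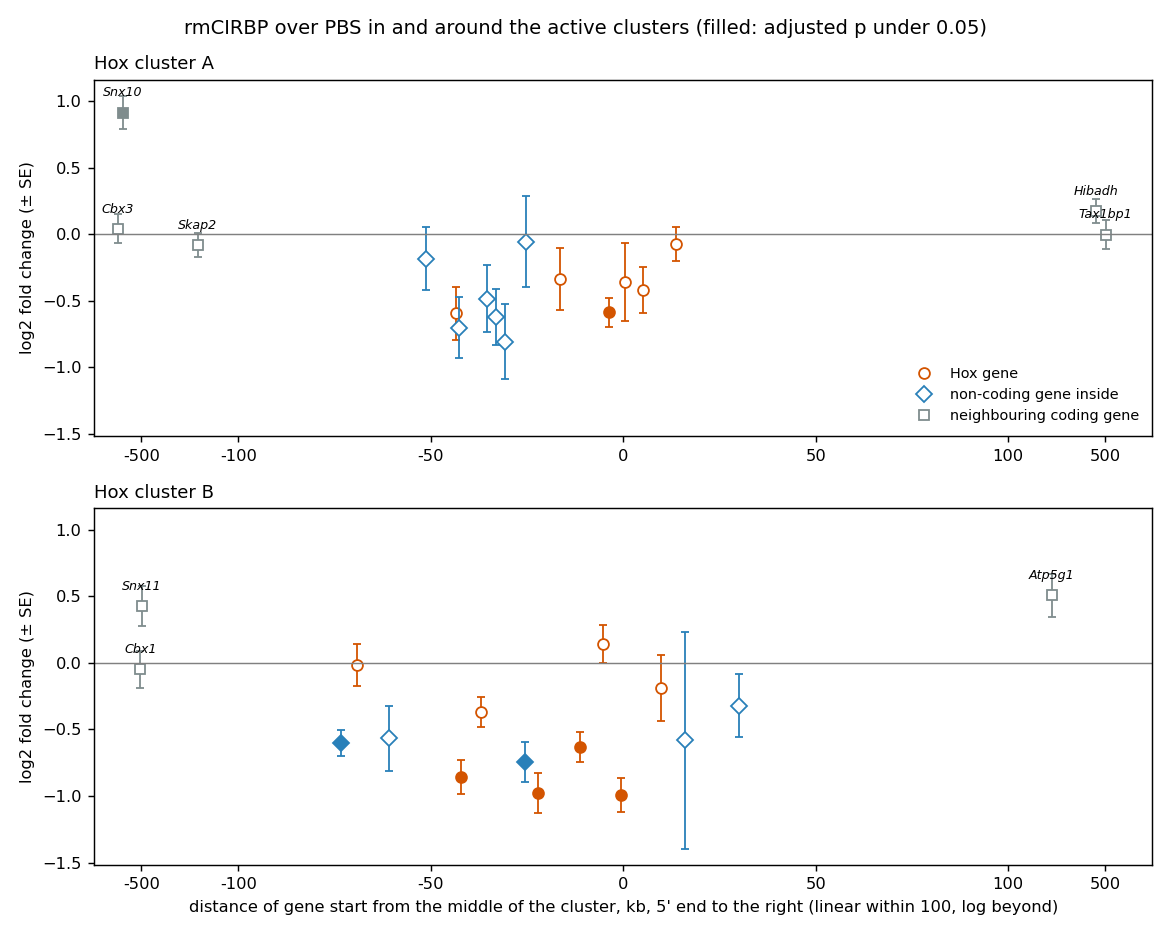
Log2 fold change of rmCIRBP over PBS (± SE) for tested genes in and around clusters A and B, by distance in kb of the gene's start from the middle of the cluster, its 5′ end to the right (linear within 100 kb, log beyond); filled markers have an adjusted p under 0.05. Genes inside clusters A and B lie mostly below 0. Among the neighbours Snx10 reaches 0.91, while the median over tested neighbours of all clusters, not only A and B, was 0.16.

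Hox proteins bind DNA together with cofactors of the TALE class of homeodomain proteins (Pbx, Meis and Pknox). All 9 were tested, 3 fell and 0 rose (4.77% of all tested genes were called lower), with a median log2 fold change of -0.35 beside -0.01 over all genes. At an unadjusted p under 0.05, 4 were lower and 0 higher. DESeq2 and limma voom also called 3 lower and 0 higher, beside 7.42% and 4.57% of all tested genes called lower. Pbx3 had 15.5, 14.1 and 16.2 CPM with rmCIRBP and 24.7, 27.5 and 29.3 CPM with PBS, a log2 fold change of -0.83 ± 0.13 (edgeR adjusted p = 0.00676). Meis2 had 25.1, 20.4 and 24.4 CPM with rmCIRBP and 35.4, 35.5 and 39.1 CPM with PBS, a log2 fold change of -0.65 ± 0.12 (edgeR adjusted p = 0.0144). Meis1 had 59.2, 42.4 and 64.0 CPM with rmCIRBP and 76.7, 84.8 and 91.0 CPM with PBS, a log2 fold change of -0.61 ± 0.16 (edgeR adjusted p = 0.0475). Groups did not overlap for any of these genes. The Meis2 call ended without PBS replicate 2 (0.0565) or PBS replicate 3 (edgeR adjusted p = 0.0617), and the Meis1 call without any library but rmCIRBP replicate 3 (0.110, 0.0515, 0.0522, 0.143 and 0.157 without rmCIRBP replicate 1, rmCIRBP replicate 2, PBS replicate 1, PBS replicate 2 and PBS replicate 3).

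**Figure D5:**
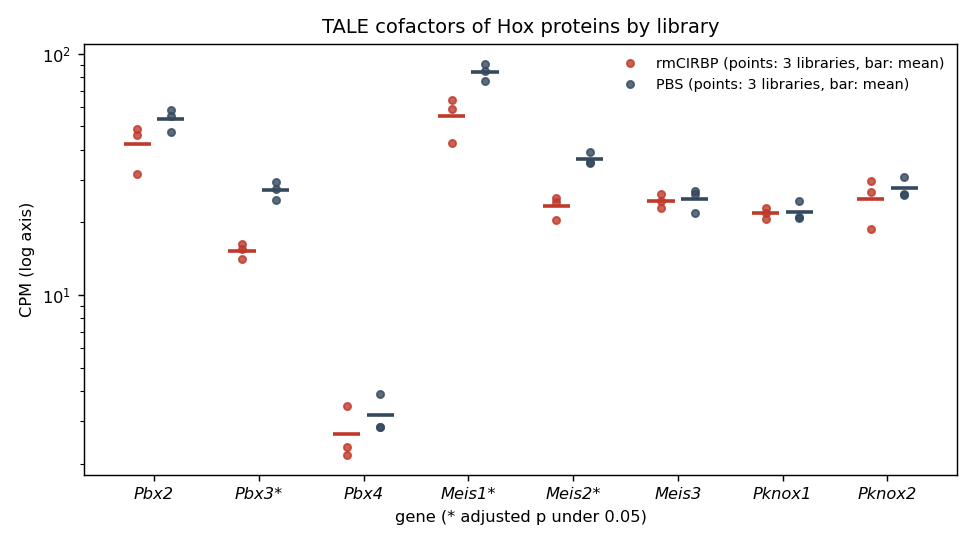
Level in CPM (log axis) of TALE cofactors, with points for libraries and bars for means, rmCIRBP left of PBS. For Pbx3, Meis1 and Meis2 every rmCIRBP library lies below every PBS library.

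Of 30 Polycomb genes, all tested, 2 rose and 1 fell, a share near the 11.5% of all tested genes called in either direction. Their median log2 fold change was -0.06. DESeq2 called 3 higher and 1 lower, beside 1446 higher and 1172 lower of all 15801 genes tested. Mtf2, which recruits Polycomb repressive complex 2, averaged 43.6 ± 7.68 CPM with rmCIRBP and 18.0 ± 1.19 CPM with PBS (SD, n = 3 each), a log2 fold change of 1.27 ± 0.15 (edgeR adjusted p = 0.00222). Pcgf5, a subunit of variant complex 1, rose by 0.50 (edgeR adjusted p = 0.0309), and Pcgf2, a subunit of canonical complex 1 whose loss is known to shift Hox boundaries in mice, averaged 36.4 ± 6.55 CPM with rmCIRBP and 65.0 ± 8.53 CPM with PBS, a log2 fold change of -0.84 (edgeR adjusted p = 0.0152). The Pcgf2 call ended without rmCIRBP replicate 1 (0.0669), PBS replicate 2 (0.0679) or PBS replicate 3 (0.0552). The Pcgf5 call ended without any library but PBS replicate 1 (0.0654, 0.0625, 0.0626, 0.0814 and 0.116 without rmCIRBP replicate 1, rmCIRBP replicate 2, rmCIRBP replicate 3, PBS replicate 2 and PBS replicate 3). The most abundant, Cbx6 (300.4 CPM with rmCIRBP and 416 CPM with PBS, edgeR adjusted p = 0.228) and Rbbp7 (166 CPM with rmCIRBP and 155 CPM with PBS, edgeR adjusted p = 0.714), did not pass the test, nor did the methyltransferase gene Ezh2 (edgeR adjusted p = 0.908). Of 19 genes for MLL complexes and histone demethylases that oppose Polycomb, edgeR and limma voom each called 0. At an unadjusted p under 0.05 in edgeR, 2 were higher and 1 lower. By DESeq2, which called 7.42% of all tested genes lower, 1 of the 19 genes was lower. Their median log2 fold change was 0.04, and the most abundant were Kmt2a (217 CPM with rmCIRBP and 212 CPM with PBS, edgeR adjusted p = 0.875) and Hcfc1 (185 CPM with rmCIRBP and 161 CPM with PBS, edgeR adjusted p = 0.204).

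Retinoic acid is known to switch on anterior Hox genes in order along the cluster. Of 19 genes for its synthesis, breakdown and receptors, 14 were tested, with a median log2 fold change of -0.42. By edgeR, 1 rose and 2 fell (6.74% of all tested genes were called higher and 4.77% lower). At an unadjusted p under 0.05, 1 was higher and 5 lower. DESeq2 called 1 higher and 3 lower, beside 1446 higher and 1172 lower of all 15801 genes tested. Aldh1a2, the main enzyme of retinoic acid synthesis in embryos, had 247, 200 and 193 CPM with rmCIRBP and 96.3, 85.9 and 51.5 CPM with PBS, a log2 fold change of 1.45 ± 0.23 (edgeR adjusted p = 0.00724). Dhrs3, which reduces retinal and so limits synthesis, had 22.8, 61.6 and 51.2 CPM with rmCIRBP and 154, 147 and 166 CPM with PBS, a log2 fold change of -1.79 ± 0.31 (edgeR adjusted p = 0.0112). Neither gene's groups overlapped. Cyp26b1, which degrades retinoic acid, averaged 3.52 CPM with rmCIRBP and 8.41 CPM with PBS, a log2 fold change of -1.25 ± 0.32 (edgeR adjusted p = 0.0423). Its call ended without any library but rmCIRBP replicate 2 (0.118, 0.0790, 0.0503, 0.151 and 0.0822 without rmCIRBP replicate 1, rmCIRBP replicate 3, PBS replicate 1, PBS replicate 2 and PBS replicate 3). The receptor gene Rarg averaged 99.4 CPM with rmCIRBP and 129 CPM with PBS and did not pass (edgeR adjusted p = 0.0620).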

How the data were processed

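The deposited table holds raw counts per gene, made by the authors with featureCounts on GRCm38/mm10, per the submitters' processing notes, which also name DESeq2 and R 4.1.2. For the aligner, annotation release and strand setting: not given in the sources used here. Libraries were polyA-selected, per the labels' protocols, so RNA without a tail is missed. Columns were matched to samples by name.

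From these counts, edgeR 4.0.16 (R 4.3.3) fitted its quasi-likelihood test to the 6 libraries with TMM scaling and filterByExpr, with Benjamini-Hochberg adjustment over 15801 genes and a threshold of 0.05. SE is of the log2 fold change, rmCIRBP over PBS. CPM is TMM-scaled counts per library size. TPM is raw counts per exon length, scaled to the same total in each library without TMM. TPM used the union of exons in GENCODE M21, in which 55227 of the 55487 IDs had a length and all 39 Hox genes had the same start and end. Alternatives used DESeq2 1.42.0, limma voom (3.58.1), other scalings, filters and thresholds, a replicate block, and leaving out each library. Every pair of replicates differed beyond sampling noise (chi-square per degree of freedom at least 15.3).

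Tested Hox genes are named, with called members and the 2 most abundant of each companion list. Some of these genes are not reported here, though they entered every fit, count and sum. The members and lists were chosen with earlier results of these data known.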

Additional observations from a re-analysis of the deposited data

How the results depend on the processing

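Between 3 and 6 Hox genes were called lower when 1 library was left out, beside 1.25% to 5.2% of all tested genes. In every refit 0 Hox genes were called higher. At an adjusted p of 0.1, 8 were lower, beside 8.94% of all tested genes, and at 0.01, 3, beside 0.962%. The median log2 fold change of tested Hox genes ranged from -0.53 to -0.35 without 1 library and was -0.51 without PBS replicate 1 and rmCIRBP replicate 2, a setting chosen after seeing the data. The log2 ratio of summed CPM ranged from -0.47 to -0.38 for cluster A, from -0.63 to -0.56 for cluster B and from -1.57 to -0.94 for cluster C without 1 library, and for cluster B it was -0.67 with upper-quartile scaling. Of the genes in the companion lists, 20 were called, 8 to 22 without 1 library, 31 without PBS replicate 1 and rmCIRBP replicate 2, 31 at an adjusted p of 0.1 and 7 at 0.01. Over all genes, 1818 were called, against 742 without rmCIRBP replicate 1, 723 without PBS replicate 2, 863 without PBS replicate 3, 2802 without PBS replicate 1 and rmCIRBP replicate 2, 2618 with DESeq2, 2607 without the filter on low counts, 3066 at an adjusted p of 0.1 and 608 at 0.01. Upper-quartile scaling shifted the median of all genes to -0.07 and called 925 higher and 1022 lower, against 1065 higher and 753 lower. Replicate numbers did not pair the samples: same-numbered libraries deviated together with a correlation of -0.11, -0.17 and 0.25, and rmCIRBP replicate 2 correlated best with PBS replicate 1 (0.36). With the replicate number as a block, 5 Hox genes were lower, beside 2.95% of all tested genes. That setting called 14 companion genes and 1258 genes in all. The block ended the calls of Meis1 (edgeR adjusted p = 0.0596), Pcgf5 (0.0654), Tbx2 (0.0689), Hoxb5os (0.0563), Hnrnpa3 (0.0575) and Nfe2l2 (0.117). No call of a named gene changed sign in any refit. Genes under the 3-count limit cannot be compared at this depth.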

Other observations

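Of 22 other transcription factors that mark lung mesenchyme, 20 were tested, with a median log2 fold change of 0.01. By edgeR, 2 rose and 3 fell (6.74% of all tested genes were called higher and 4.77% lower). DESeq2 called 4 higher and 3 lower, beside 1446 higher and 1172 lower of all 15801 genes tested. Foxf1, a regulator of lung mesenchyme, averaged 103 CPM with rmCIRBP and 59.6 CPM with PBS, a log2 fold change of 0.78 ± 0.11 (edgeR adjusted p = 0.00427). Zeb2 averaged 224 CPM with rmCIRBP and 134 CPM with PBS, a log2 fold change of 0.74 (edgeR adjusted p = 0.00875). Osr1 averaged 60.6 CPM with rmCIRBP and 145 CPM with PBS (-1.26, edgeR adjusted p = 0.0143), Tbx5 29.2 CPM with rmCIRBP and 46.9 CPM with PBS (-0.68, edgeR adjusted p = 0.0141), and Tbx2 55.4 CPM with rmCIRBP and 76.5 CPM with PBS (-0.47, edgeR adjusted p = 0.0226). The Osr1 call ended without rmCIRBP replicate 1 (0.0655) or PBS replicate 2 (0.0515), the Tbx5 call without rmCIRBP replicate 1 (0.0680), PBS replicate 2 (0.0689) or PBS replicate 3 (0.0569), and the Tbx2 call without rmCIRBP replicate 1 (0.0923), rmCIRBP replicate 3 (0.0563), PBS replicate 2 (0.0930) or PBS replicate 3 (0.0508). The most abundant gene, Prrx1, averaged 398 CPM with rmCIRBP and 353 CPM with PBS (edgeR adjusted p = 0.575), and Tbx4, a lung mesenchyme factor related to Tbx5, 96.1 CPM with rmCIRBP and 79.9 CPM with PBS (edgeR adjusted p = 0.222).

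Transcription factors that mark connective tissue of other body sites were low. Of 17, 5 were tested and 1 rose (6.74% of all tested genes were called higher), and Hand1 and Dlx6 had no count. DESeq2 called 2 higher and 1 lower, beside 1446 higher and 1172 lower of all 15801 genes tested. Msx2, a factor of skull and limb bud, averaged 7.74 CPM with rmCIRBP and 2.51 CPM with PBS, a log2 fold change of 1.62 ± 0.32 (edgeR adjusted p = 0.0172), and its call ended without rmCIRBP replicate 1 (0.0626) or PBS replicate 2 (0.0769). Tbx15 averaged 4.99 CPM with rmCIRBP and 10.2 CPM with PBS (edgeR adjusted p = 0.0878), and En1, a marker of dorsal skin fibroblasts, 8.32 CPM with rmCIRBP and 3.75 CPM with PBS (edgeR adjusted p = 0.0893).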
